A study of Mus musculus with 9 samples.

Results

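Of the 5281 circular RNAs (circRNAs) counted in the mouse cortex, 558 kept a similar level in 3 successive cell types of neurogenesis, and these are described here. A circRNA was taken as stable when it had at least 10 counts in each of the 9 libraries and when the highest of its 3 group means was less than 1.5 times the lowest. Group means were taken over CPM (counts scaled to library size), computed on column sums without 27 entries that dominated every library, a single entry on chromosome 5 and 26 entries of a cluster on chromosome 17. Of the 5254 circRNAs that remained, 1236 had at least 10 counts in every library and are called well measured below. The stable circRNAs were 45.1% of them, and the other 678 had a ratio of 1.5 or more. Since the group means themselves chose the members, their levels are given as a description, without a test.

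The cells came from the lateral cortex of C57BL/6 mouse embryos at embryonic day 14.5, whose mothers were heterozygous for 2 reporters, RFP under the control of Btg2 and GFP under the Tubb3 promoter. Proliferative progenitors (PP) were sorted as cells with neither reporter, differentiative progenitors (DP) as cells with RFP and without GFP, and neurons (N) as cells with GFP, whether or not they carried RFP, so that each group is defined by the activity of these promoters. Each cell type had 3 libraries, which the study describes as biological replicates, made from total RNA treated with RNase R, an enzyme that degrades linear RNA. A count here takes in every read on the expressed features of a circRNA, whether or not it crosses the junction where the circle closes.

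CircRNAs form by backsplicing, in which the end of an exon is joined to the start of the same or an upstream exon, so that the RNA has no free end. They lack the ends at which most decay of linear RNA starts, and long-lived circRNAs are known to accumulate in neural tissue. In the developing cortex, PP divide to expand the progenitor pool, DP divide to produce neurons, and N are the postmitotic cells that result.

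The junction is what sets a circRNA apart from the messenger RNA of its gene. For the 9 stable circRNAs with the highest level per length among those with coding sequence on both sides of the junction, 1 per gene, and for 1 small circle each of Ehmt1 and Eif4g3, genes with many stable circRNAs, it is shown 5′ to 3′ with 25 lower-case bases from the end of the last exon followed by 25 capitals from the start of the first exon, from the mm9 (NCBIM37) genome with coordinates counted from 1.

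Hnrnpa2b1, chr6:51416302-51416704, minus strand, exons 4 to 5 of 10: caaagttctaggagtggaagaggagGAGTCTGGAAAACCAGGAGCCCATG
Eef2, chr10:80642898-80643156, plus strand, exon 9 of 14: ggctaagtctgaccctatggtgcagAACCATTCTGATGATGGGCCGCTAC
Nfix, chr8:87295683-87296214, minus strand, exon 2 of 12: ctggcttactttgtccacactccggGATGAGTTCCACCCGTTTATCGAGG
Taf15, chr11:83314617-83316354, plus strand, exons 11 to 12 of 16: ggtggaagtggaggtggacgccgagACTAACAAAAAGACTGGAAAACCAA
Gnb1, chr4:154914665-154917302, plus strand, exons 6 to 7 of 12: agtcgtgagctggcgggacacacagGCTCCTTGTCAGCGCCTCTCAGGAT
Tardbp, chr4:147994701-147996221, minus strand, exons 3 to 4 of 8: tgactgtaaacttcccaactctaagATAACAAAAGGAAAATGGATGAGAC
Ctbp1, chr5:33601787-33603802, minus strand, exons 3 to 4 of 9: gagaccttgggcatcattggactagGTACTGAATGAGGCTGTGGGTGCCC
Caprin1, chr2:103609592-103609786, minus strand, exon 16 of 19: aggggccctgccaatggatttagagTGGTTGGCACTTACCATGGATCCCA
Ddb1, chr19:10682741-10682962, plus strand, exon 4 of 27: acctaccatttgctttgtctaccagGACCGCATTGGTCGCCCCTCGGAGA
Ehmt1, chr2:24739666-24740222, minus strand, exon 3 of 26: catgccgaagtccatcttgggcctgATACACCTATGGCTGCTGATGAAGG
Eif4g3, chr4:137652667-137653274, plus strand, exons 6 to 7 of 10: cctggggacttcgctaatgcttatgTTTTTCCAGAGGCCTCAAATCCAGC

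The genome carries the splice signals of these junctions. Of the 558 stable circRNAs, 547 began and ended at annotated exon boundaries of a transcript on the same strand (98.0%), and in all 547 the bases AG stood just before the first exon and GT just after the last. A further 10 lay on the strand of a gene with other ends, and 1 lay between genes. The same signals flanked all 666 of the other well measured circRNAs with exon ends, so they do not set the stable ones apart. The circRNAs had been predicted with find_circ at its default settings. If that step asks for these signals, their presence was fixed beforehand, so nothing is read from it.

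Column totals lay between 2962787 and 8015311 counts, and between 83572 and 287983 once the 27 dominant entries were left out, so that 10 counts stood for 34.7 CPM in the deepest library and for 120 CPM in PP replicate 3, the shallowest. Stable circRNAs took 23.4% to 25.3% of the remaining counts in each library, with a median count per circRNA between 23 in PP replicate 3 and 90 in DP replicate 1. PP replicate 3 and N replicate 1, both with few remaining counts, stood apart from their replicates, and results that rest on them are given with and without them. No gene of 5 lists of other cell types (interneurons, microglia, endothelium, pericytes and erythroid cells) or of a meninges list had a circRNA in the table. None of the marker genes of PP, DP or N had a stable circRNA, and no gene of the DP list had a circRNA. The 16 circRNAs of 5 PP marker genes summed to 9486 to 10368 CPM in the PP libraries, 3803 to 4806 in DP and 1350 to 2493 in N. The 10 of 3 N marker genes summed to 131 to 359, 1086 to 1309 and 7217 to 7688 CPM. Both sums kept the groups apart in the order of the labels, but single genes did not always do so. The Ptprz1 circRNA had 1520 to 2847 CPM in PP, 549 to 1008 in DP and 660 to 1903 in N, so that N overlapped both. That of Fgfr2 had 555 to 1328, 195 to 252 and 59.0 to 107 CPM and kept the order. In sorted bulk RNA, fewer cells with a circRNA and fewer copies per cell cannot be told apart.

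The ratio of the highest to the lowest group mean ran from 1.007 to 1.499 among the stable circRNAs, with a median of 1.29 and quartiles of 1.18 and 1.39. A ratio below 1.1 was found for 48 of them. The highest mean fell in PP for 207, in DP for 206 and in N for 145, and the lowest in PP for 179, in DP for 131 and in N for 248. No cell type was therefore the peak of most of them. N held the lowest mean most often (44.4%), as it did among the other well measured circRNAs (43.95%). This order depends on the scaling, since with TMM factors the median log2 fold change of the stable circRNAs was 0.08 in N against DP and 0.07 in N against PP. Just inside the threshold stood Ttc3, which encodes a ubiquitin ligase (1.499), Zc3h4, a zinc finger protein that limits transcription of noncoding RNA (1.499), and Ctcf, the zinc finger protein that organises chromatin loops (1.498). Just outside it stood Tnpo2, a nuclear import receptor (1.5003), Srcap, a chromatin remodeller (1.501), and Pabpn1, the nuclear poly(A)-binding protein (1.502). The values on either side of the threshold were almost the same. The Ttc3 ratio was 2.43 without PP replicate 3 and 1.88 without N replicate 1.

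**Figure D1:**
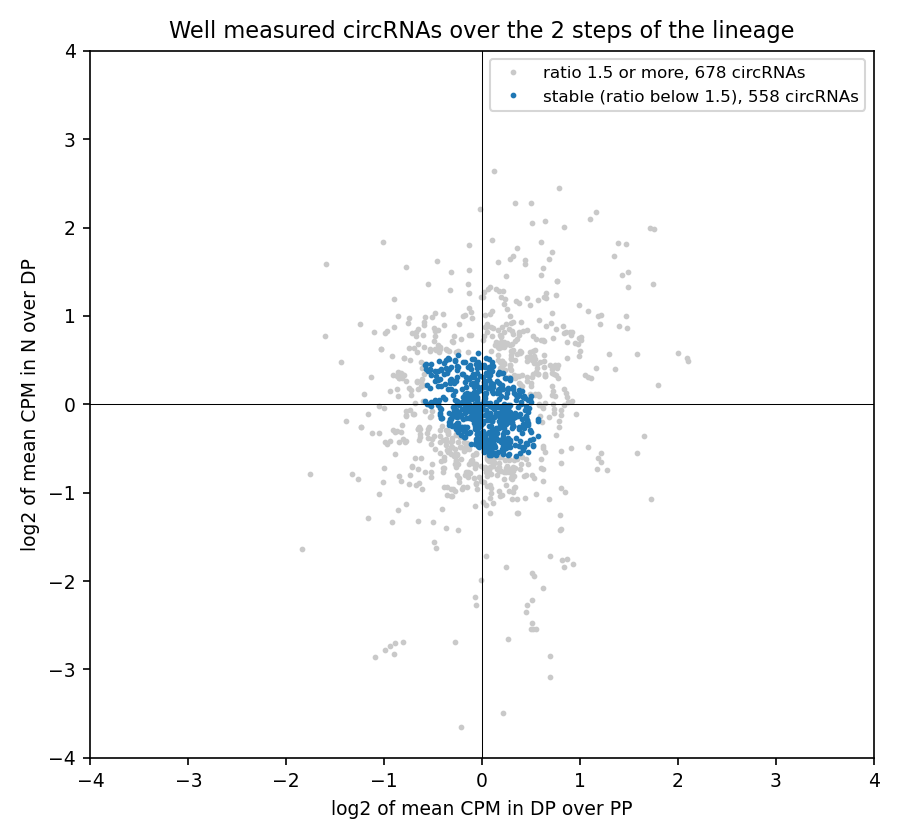
Each point is 1 of the 1236 well measured circRNAs, with the log2 ratio of its mean CPM in DP over PP on the horizontal axis and in N over DP on the vertical axis. The 558 stable circRNAs (blue) fill the hexagon around 0 that the rule defines, and the 678 others (grey) spread around it without a gap at its edge.

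The plot of both steps of the lineage shows that the stable circRNAs were not a separate cluster. They formed the centre of a continuous cloud, and its edge was set by the rule.

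The stable circRNAs with the highest level per length, that is, CPM per kilobase of counted sequence, came from genes of several roles. The highest was a circle of Hnrnpa2b1, which encodes a ribonucleoprotein of splicing and RNA transport, with 5158, 4190 and 11212 CPM in the PP libraries, 8404, 7936 and 7609 CPM in DP and 12034, 5177 and 6612 CPM in N. Its DP libraries lay close together, whereas PP replicate 3 and N replicate 1 lay far above their replicates, and the 3 groups overlapped. Per kilobase its mean level was 18793 CPM, followed by Eef2 with 6991 and by a single-exon circle of Nfix with 4523.

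Eef2 encodes the elongation factor that moves the ribosome along mRNA, and its circle of 1 exon had 1722, 1489 and 1544 CPM in PP, 1990, 1960 and 2043 in DP and 1195, 2000 and 2415 in N. The PP and DP libraries did not overlap, by a small margin, and N replicate 1 lay below all others. Its ratio of 1.26 was at most 1.393 whichever library was left out. The Nfix circle, from exon 2 of a transcription factor of the nuclear factor I family, had 1424, 1287 and 4009 CPM in PP, 2415, 2271 and 2327 in DP and 3021, 2077 and 2866 in N. Here the stable mean of PP joined 2 low libraries and a high one, and without PP replicate 3 the ratio went from 1.19 to 1.96.

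Taf15, which encodes an RNA- and DNA-binding protein of the FET family, showed the widest spread of the 15 highest. Its circle had 467, 379 and 1950 CPM in PP, 759, 1089 and 847 in DP and 1175, 427 and 602 in N, and its ratio went from 1.27 to 2.13 without PP replicate 3 and to 1.81 without N replicate 1. The circle of Gnb1, the beta subunit of heterotrimeric G proteins, was low in PP replicate 3 and N replicate 1, where that of Taf15 was high. It had 708, 641 and 359 CPM in PP, 668, 571 and 683 in DP and 204, 819 and 729 in N, with a ratio of 1.13 that stayed below 1.38 whichever library was left out.

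Tardbp encodes TDP-43, a regulator of splicing, and its circle was among the most even within PP, with 587, 550 and 527 CPM, against 793, 652 and 676 in DP and 796, 410 and 428 in N. N replicate 1 lay far above the other N libraries, and without it the ratio went from 1.298 to 1.69. Caprin1, an RNA-binding protein of stress granules, had a circle of 1 exon with group means of 333 ± 88.0 CPM in PP, 412 ± 93.4 in DP and 342 ± 113 in N (SD, n = 3 each). Ctbp1, a corepressor of transcription, had its lowest mean in PP and its highest in N, with 559 ± 70.3, 674 ± 35.0 and 757 ± 129 CPM, and the N libraries overlapped those of both progenitors. Of the helicase genes, Ddx17 had group means of 363 ± 182, 469 ± 29.1 and 429 ± 36.3 CPM and Dhx9 had 399 ± 182, 552 ± 34.4 and 380 ± 188 CPM. Both circles spanned exons 2 to 3 and shared tight DP libraries and a low PP replicate 3.

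Others of the 15 highest came from genes with different roles. Ddb1, the adaptor of a family of ubiquitin ligases, had 401 ± 57.3 CPM in PP, 432 ± 75.1 in DP and 306 ± 72.6 in N. Mbd3, a subunit of the NuRD chromatin complex, had 354.4 ± 98.5, 391 ± 73.6 and 397 ± 177 CPM. Sfpq, a splicing factor of paraspeckles, had 1108 ± 534, 1288 ± 65.9 and 870 ± 182 CPM, with a ratio of 1.48 near the threshold. Pdap1 had 264 ± 113, 356 ± 16.3 and 381 ± 124 CPM, and a stretch of 284 bases between genes on chromosome 3 had 512 ± 95.4, 626 ± 156 and 475 ± 187 CPM. The groups overlapped in all of these except DP and N of Sfpq, and DP varied less than PP for Mbd3, Sfpq and Pdap1.

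**Figure D2:**
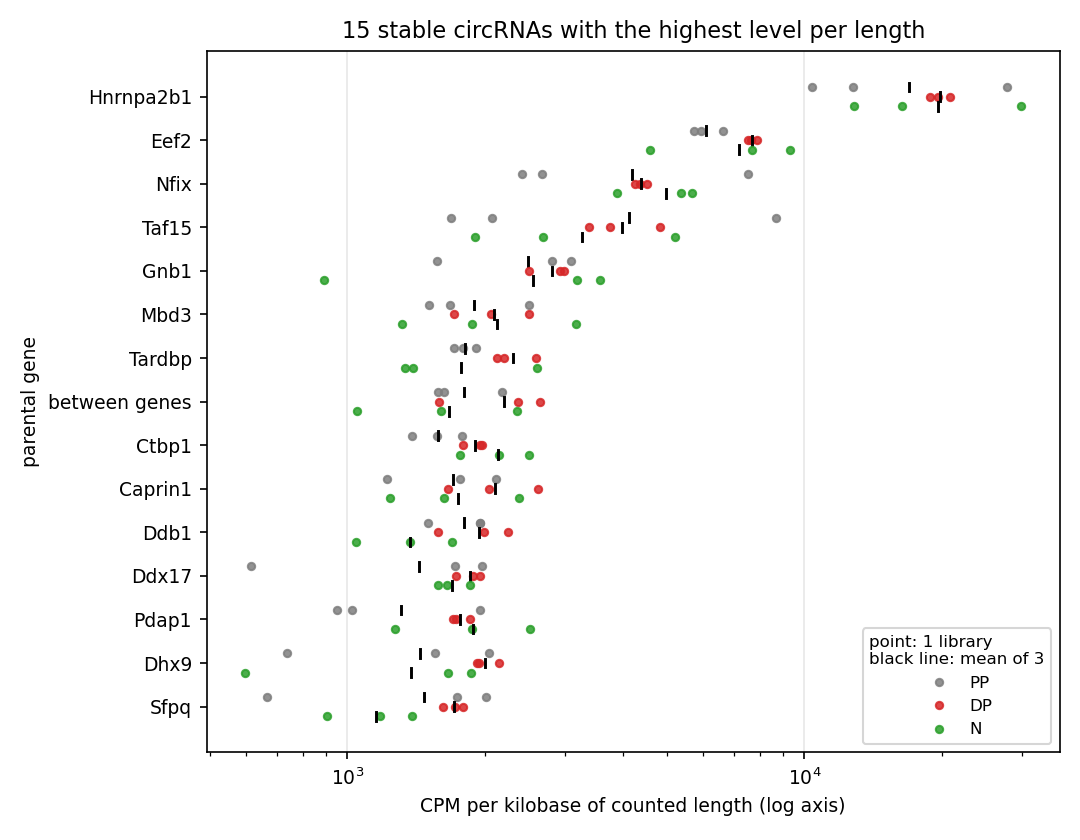
CPM per kilobase of counted length (horizontal log axis) of the 15 stable circRNAs with the highest level per length, 1 per gene, with a point for each library and a black line for the mean of 3. The means of a gene lie close together, the DP points are tight for Hnrnpa2b1, Eef2 and Nfix, and single PP and N libraries lie far from their replicates for Hnrnpa2b1, Taf15 and Gnb1.

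The plot of the highest circRNAs by library shows that similar group means often came from libraries that were not alike. A smaller ratio did not always go with tighter libraries.

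The circRNAs with the smallest ratios were of moderate level. The smallest, 1.007, belonged to a circle of exons 2 to 3 of Khdrbs1, which encodes the splicing regulator Sam68. It had 346, 384 and 168 CPM in PP, 348, 252 and 291 in DP and 320, 326 and 246 in N, and without PP replicate 3 its ratio was 1.23. A second stable circle of the gene, of exons 5 to 6, had a ratio of 1.31. By contrast, the circle of Pdpk1, a kinase that activates Akt, was even in every library, with 153, 167 and 144 CPM in PP, 160, 137 and 149 in DP and 155, 174 and 137 in N. The circle of Ociad1 was as even, with 121, 157 and 144 CPM in PP, 153, 137 and 116 in DP and 155, 128 and 132 in N. In both, the 3 groups covered the same range, and leaving out any single library kept the ratio below 1.11.

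Others of the 10 smallest ratios came from genes of various functions. They included Qrich1 (1.022), the histidine methyltransferase Mettl9 (1.026), the chromatin reader Zmynd11 (1.031), the Sin3 complex subunit Sap130 (1.032), Phf14, a PHD finger protein (1.038), and the actin capping subunit Capzb (1.040). Group means for Qrich1 were 423 ± 82.5, 430 ± 70.7 and 432 ± 91.6 CPM, and for Capzb 238 ± 64.8, 239 ± 44.9 and 230 ± 8.37 CPM. In each of those named, the difference between the group means was smaller than the SD of at least 1 group.

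Replicates of stable circRNAs differed more in PP and N than in DP. The median coefficient of variation over 3 libraries was 27.4% in PP, 11.9% in DP and 22.5% in N, where counting alone would give 17.8%, 10.96% and 15.3%. For the other well measured circRNAs it was 32.4%, 12.4% and 24.5%, so that both sets shared the order of the cell types. In PP replicate 3, 51.6% of the stable circRNAs were more than 1.5-fold away from the mean of the other PP libraries, and in N replicate 1 this held for 41.0%. In the 3 DP libraries it held for only 3.76% to 5.38%. Counting error covers reads only and no difference between samples.

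**Figure D3:**
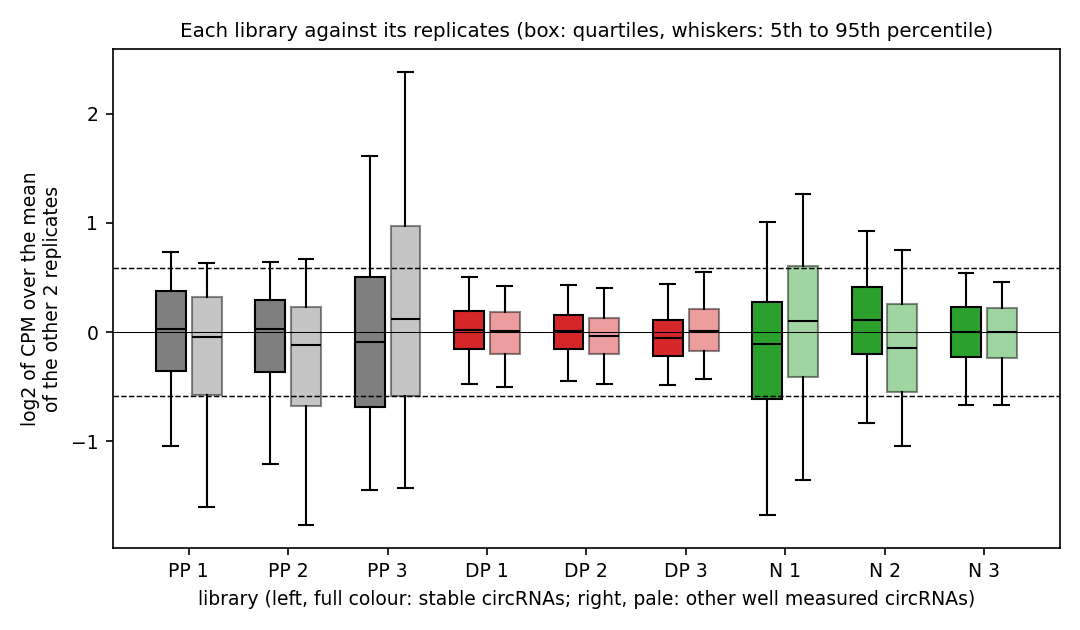
For each library (horizontal axis), boxes show the log2 ratio of CPM to the mean of the other 2 replicates over the 558 stable circRNAs (full colour) and the 678 other well measured circRNAs (pale), with quartiles, the median and whiskers from the 5th to the 95th percentile. Dashed lines mark a 1.5-fold difference, which both boxes of PP 3 and of N 1 and the pale box of PP 2 cross and the whole whiskers of the 3 DP libraries do not reach.

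The plot of each library against its replicates has direct bearing on the rule, since the rule uses means of 3. Without PP replicate 3, 123 of the 558 circRNAs (22.0%) had a ratio of 1.5 or more, up to 2.65, and without N replicate 1, 67 (12.01%) did. A total of 267 (47.8%) stayed below 1.5 whichever single library was left out. Among the 15 highest per length, Hnrnpa2b1, Nfix, Taf15 and Sfpq were past the threshold without PP replicate 3, and Taf15, Tardbp and the entry between genes without N replicate 1, the last with a ratio of 1.66. The ratio of Hnrnpa2b1 was 1.71 and that of Sfpq 1.62 without PP replicate 3. Other libraries mattered as well. Without PP replicate 1 the ratio was 1.91 for Pdap1 and 1.59 for Ddx17. Leaving out N replicate 3 gave 1.77 for Dhx9 and 1.603 for Ddb1. Of the 15, only Eef2, Gnb1, Mbd3, Ctbp1 and Caprin1 stayed below 1.5 whichever single library was left out.

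A fit over all tested circRNAs gave the precision of these comparisons. With edgeR's quasi-likelihood test and Benjamini-Hochberg adjustment at 0.05, 1.86% of 4406 circRNAs were called in DP against PP, and 0 of the 558 stable ones. In N against DP, 18.8% of all were called and 0 of the stable ones, and in N against PP, 28.0% of all and 0 of the stable ones. Since the rule was set on the same means, nothing is read from these zeros. The same test gave 0, 4 and 4 stable circRNAs at an unadjusted p under 0.05, and DESeq2 called 0 in each contrast, with 0, 8 and 8 at an unadjusted p under 0.05.

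The absence of a call did not bound the changes tightly. The median standard error of the log2 fold change was 0.33 in DP against PP and in N against DP and 0.34 in N against PP. A median 95% interval reached 0.72, 0.70 and 0.73 on either side on the log2 scale, equal to 1.64-, 1.63- and 1.66-fold. The whole interval lay within 1.5-fold for 0, 1 and 0 of the 558. At this depth and with this spread, differences of up to about that size were not detectable for most stable circRNAs. Without PP replicate 3, the same test called 1 stable circRNA in DP against PP, where it called 3.90% of all tested, 3 in N against DP (26.4% of all) and 45 in N against PP (34.9% of all), all but 1 of which were higher in N. Without both PP replicate 3 and N replicate 1 it called 44, 49 and 94 stable circRNAs, and 14.0%, 33.9% and 42.2% of all tested.

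Replicates that do not overlap give a plainer view. Of the stable circRNAs, 29 (5.20%) had all DP libraries on one side of all PP libraries, 93 (16.7%) had N apart from DP and 49 (8.78%) had N apart from PP. Among the other well measured circRNAs, whose ratio of 1.5 or more sets groups apart by choice, the shares were 31.7%, 63.4% and 52.4%, and over all well measured circRNAs they were 19.7%, 42.3% and 32.7%.

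In structure, stable circRNAs resembled the other well measured ones. Their counted length had a median of 807 bases and ran from 158 bases (Kif1b, a kinesin motor for axonal transport, exons 14 to 15) to 78705 (an Nfix entry counted over its whole span), against a median of 849.5 for the others and 467 for the whole table. The median genomic span was 7331.5 bases, against 8037.5 and 5338, and the widest was 86445 bases, in Arid1b, a subunit of the BAF chromatin remodeller. The median number of exons was 4 in both sets and 3 in the whole table. The rule's minimum of 10 counts favours long features, since their level is counted over more bases.

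The first exon of the circle was most often exon 2. This held for 37.1% of the stable circRNAs with exon ends, 39.2% of the other well measured ones and 29.9% of the whole table, and exon 1 was the start in 1 stable circRNA. Coding sequence covered the whole of 401 (73.3%) and none of 11. The median GC content of the stable circles was 50.1%, against 52.0% for the others. Introns flanking them were 8102 bases long upstream and 4546 downstream by median, against 8987 and 5565. Differences of this size were not tested, since circles of 1 gene share sequence.

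Counted length also shows which features entered the counts. It equalled the annotated exons for 386 of the 547 stable circRNAs with exon ends, allowing 1 extra base per exon, and exceeded them for 161 (29.4%), by a median of 410 bases. The Hnrnpa2b1 circle was 1 of these, with 404 counted bases, the whole of its span, against 313 in its exons. For such circRNAs the level takes in sequence that GENCODE vM1 does not annotate as exon of the circle's transcript. The authors counted on another annotation release, and whether all of that sequence is intron was not tested here. The study kept intron sequences among its expressed features, though it could not detect introns in the circles it checked. It proposes that reads on introns may come from lariats, which are spliced-out introns. In the other well measured set the share was 33.3%, and it was 10.9% over all circRNAs.

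The 558 stable circRNAs came from 339 genes and occupied 373 stretches of the genome that did not overlap. A single stable circRNA was found in 221 genes, 2 in 67 and 3 or more in 51, so that 336 of the 558 shared their gene with another. Circles of 1 gene can share exons, and how reads on a shared exon were assigned is not given in the sources used here. In 601 nested pairs of well measured circRNAs of 1 gene, the inner circle had no more counts than the outer one in any library, so that such entries are not treated as independent.

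Ehmt1, which encodes a histone H3 lysine 9 methyltransferase, had the most stable circRNAs, 12 of its 14 well measured. Their ratios ran from 1.07 to 1.42, and without N replicate 1 that of the circle of exons 5 to 10 was 1.52. Without PP replicate 2, the circles of exons 2 to 6, 3 to 6 and 5 to 10 were past 1.5. So were those of exons 4 to 8, 4 to 9 and 4 to 10. These ratios past the threshold ran from 1.56 to 1.64. The remaining stable Ehmt1 circles stayed below 1.5 whichever single library was left out. The single-exon circle of exon 3, whose junction is shown above, had 306, 303 and 419 CPM in PP, 299, 189 and 360 in DP and 301, 264 and 251 in N. A larger circle of exons 3 to 6 had 595, 505 and 1101 CPM in PP, 585, 437 and 611 in DP and 573, 490 and 519 in N. The libraries of these circles moved together, and 2 further entries, of exons 2 to 3, differed by 3 bases at their start and had the same CPM in every library. The circle of exons 15 to 17, which shares none of these exons, had the smallest ratio of the gene, with 144 ± 20.6, 150 ± 6.11 and 140 ± 13.5 CPM.

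All 7 well measured circRNAs of Eif4g3, a scaffold of translation initiation, were stable, with ratios from 1.11 to 1.34. The circle of exons 6 to 7 had 121, 197 and 239 CPM in PP, 104, 100 and 211 in DP and 291, 153 and 105 in N, and the libraries within each cell type differed more than the group means. Without DP replicate 3 its ratio was 1.82, and without N replicate 3 that of the circle of exons 6 to 9 was 1.64. The exons of these circles are numbered on a transcript of 10 exons. On another transcript, of 35 exons, the circle of exons 15 to 20 had group means of 382 ± 72.9, 346 ± 59.5 and 358 ± 19.4 CPM. Smad4, the shared mediator of TGF-beta signalling, and Zfp827 had 7 stable circRNAs each. In 90 genes with 2 or more well measured circRNAs, all were stable, and in 54 genes stable and other circRNAs occurred together.

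Among those 54 genes, 5 were taken by the largest call of another circRNA in N against PP, and they show how far circles of 1 gene can differ. Auts2, a regulator of transcription linked to autism, gave a stable circle of 1 exon, with 105, 151 and 180 CPM in PP, 150, 92.6 and 229 in DP and 184, 188 and 169 in N. Another Auts2 circle had 845, 570 and 156 CPM in PP, 947, 811 and 1105 in DP and 1379, 1215 and 1522 in N. It was chosen for this rise, and its N libraries lay above all PP and DP libraries. The 2 circles share no exon, and the changing one was counted over 2102 bases, of which 725 were annotated exon.

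Nfix, the transcription factor named above, gave a changing circle as well, with group means of 1653 ± 107 CPM in PP, 2822 ± 306 in DP and 3836 ± 1220 in N. It was counted over 6326 bases, of which 695 were annotated exon, the rest lying outside the exons of GENCODE vM1. Its stable single-exon circle lies upstream of that stretch and had 2240 ± 1530, 2338 ± 72.5 and 2654 ± 506 CPM. Another entry of the gene, with ends that are not exon boundaries, spans both of them, was counted over its whole 78704 bases and had 8564 ± 916, 10359 ± 2704 and 10215 ± 3308 CPM. Reads of the changing circle can count towards this stable entry, and its level per kilobase was only 123.4 CPM.

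Camsap1, which protects the minus ends of microtubules, had 3 stable circles that all start at exon 2 and a changing circle of exons 7 to 12, which shares exons with the longest of them. The stable circle of exons 2 to 3 had 161, 106 and 634 CPM in PP, 282, 244 and 214 in DP and 350, 306 and 237 in N, and the changing one had 708, 661 and 299, then 901, 808 and 796, and 1175, 1271 and 1034. PP replicate 3 was the highest PP library for the first circle and the lowest for the second. Without it, the ratio of the 3 stable circles was between 2.10 and 2.26. The stability of the Camsap1 circles therefore rests on 1 library.

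Zc3h4 and Arhgef7, an exchange factor for Rac and Cdc42, followed a similar pattern. The stable Zc3h4 circle had 297 ± 69.0, 418 ± 76.7 and 445 ± 164 CPM and the changing one 251 ± 61.0, 520 ± 31.0 and 652 ± 273 CPM. The stable one was counted over 630 bases, of which 331 were annotated exon, and the changing one over 707, of which 612 were. In Arhgef7, stable circles of exons 3 to 5 and 3 to 6 had 324 ± 128, 325 ± 25.4 and 440 ± 109 CPM and 365 ± 121, 362 ± 23.7 and 485 ± 134 CPM, whereas the changing circle had 215 ± 65.7, 283 ± 64.7 and 428 ± 54.7 CPM. Those stable circles were counted over 1705 and 1795 bases, of which only 418 and 507 were annotated exon. For the changing circle it was 628 of 771 bases. The stable circles of both genes had their highest mean in N too, and without PP replicate 3 their ratios were 1.603 in Zc3h4 and 1.75 and 1.64 in Arhgef7. Without N replicate 1 those of Arhgef7 were 1.51 and 1.53, and without N replicate 2 that of Zc3h4 was 1.77. Whether stable and changing circles of a gene differed was not tested.

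**Figure D4:**
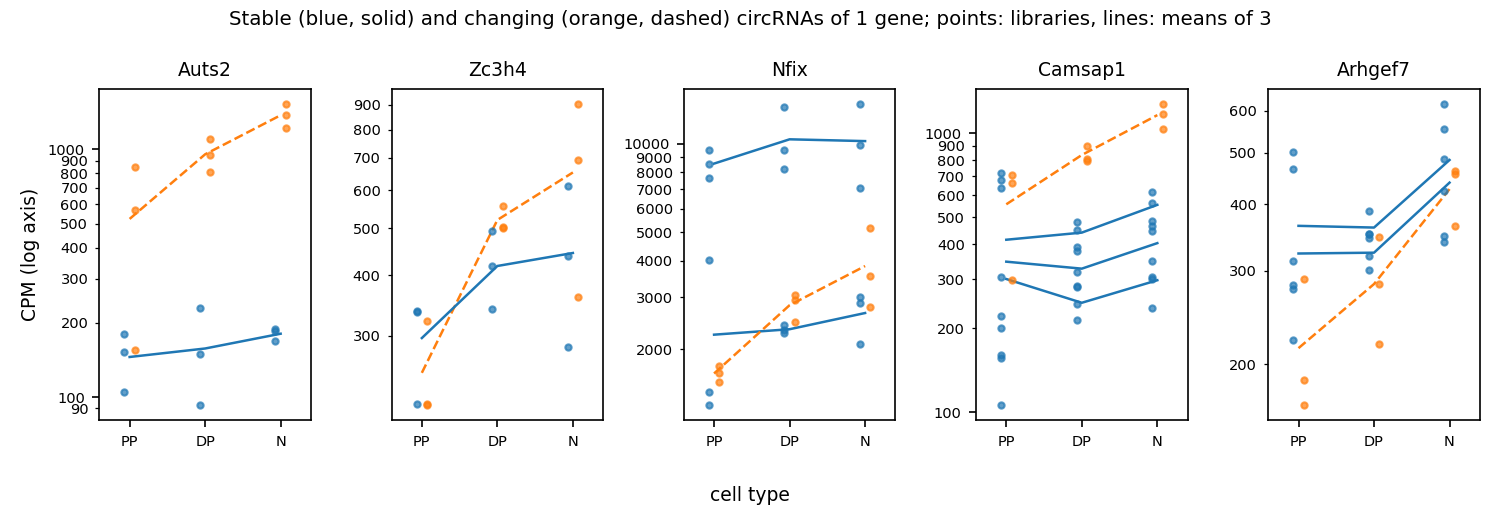
CPM (vertical log axes, which differ between panels) in PP, DP and N of stable (blue, solid) and changing (orange, dashed) circRNAs of 5 genes, with a point for each library and lines through the means of 3. Changing circles climb from PP to N in all 5 panels, and in Camsap1 the 3 highest blue points in PP are of PP replicate 3.

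The plot of circles of 1 gene shows the levels side by side. In Zc3h4 and Arhgef7 the stable circles also had their highest mean in N, within the limit of the rule.

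Stable circRNAs were spread over all 13 lists of parental genes by function, which together held 290 of the 558. Their share of the well measured circRNAs of a list, which is 45.1% over all well measured circRNAs, was highest for ubiquitin ligation and removal (33 of 52, 63.5%), Notch and Wnt signalling (13 of 23, 56.5%) and membrane traffic (18 of 33, 54.5%). It was near the overall share for RNA binding and splicing (48 of 99, 48.5%), chromatin regulation (65 of 135, 48.1%) and transcription factors (60 of 129, 46.5%). It was lower for microtubule motors and cytoskeleton (8 of 21, 38.1%), centrosome, spindle and chromosome segregation (4 of 11, 36.4%), GTPase regulators and kinases (28 of 85, 32.9%), axon guidance and adhesion (11 of 41, 26.8%), nuclear pore and transport (2 of 10), synapse and ion channels (2 of 13, 15.4%) and DNA replication and repair (1 of 11, 9.09%). The shares were not tested, and circles of 1 gene count separately in them.

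**Figure D5:**
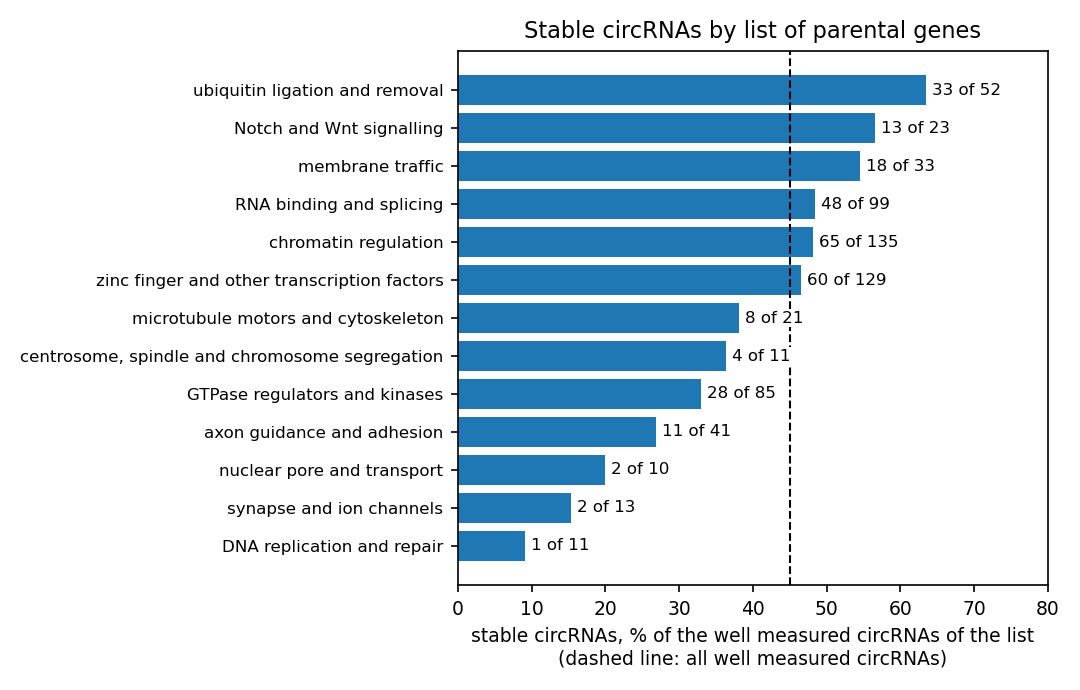
Bars give stable circRNAs as a percentage (horizontal axis) of the well measured circRNAs of each of 13 lists of parental genes, with the numbers beside them, and the dashed line marks the 45.1% of all well measured circRNAs. Ubiquitin ligation stands highest at 63.5%, and lists of 10 to 13 circRNAs make up the lowest 3 bars.

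The plot of gene lists gives the order of these shares. Small lists stand at the lower end, where 1 or 2 circRNAs move a bar most.

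In the ubiquitin list, the 33 stable circRNAs came from 18 genes. A circle of exons 6 to 7 of Fbxw8, a substrate receptor of a cullin ligase, had 209, 217 and 335 CPM in PP, 271, 326 and 276 in DP and 291, 257 and 282 in N. The groups overlapped and the ratio was 1.15. Usp3, a deubiquitinase of histones, had 279 ± 95.4, 359 ± 29.1 and 383 ± 114 CPM, and Huwe1, a large ligase gene on the X chromosome, had 293 ± 87.7, 256 ± 73.7 and 227 ± 103 CPM. The Usp3 ratio was 1.605 without N replicate 1 and 1.70 without PP replicate 1. That of Huwe1 was 1.51 without PP replicate 3 and 1.61 without N replicate 2. On the X chromosome, 7 of the 10 well measured circRNAs were stable.

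In the Notch and Wnt list, the highest circles per length came from Wnt receptors and a corepressor. Fzd3, a Frizzled receptor needed for axon tracts, had 153, 131 and 203 CPM in PP, 212, 156 and 134 in DP and 97.1, 146 and 128 in N, with overlap between all groups. The coreceptor Lrp6 had 291 ± 60.9, 267 ± 20.3 and 215 ± 45.9 CPM. Spen, a corepressor at Notch target genes, had 304 ± 26.8, 260 ± 38.8 and 216 ± 46.4 CPM. These 3 circles had their lowest mean in N.

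Membrane traffic genes with stable circRNAs included Eps15l1, an endocytic adaptor, with 356 ± 16.7, 402 ± 66.3 and 454 ± 80.6 CPM. Sec61a1, the channel for proteins into the endoplasmic reticulum, had 194 ± 14.8, 189 ± 14.7 and 158 ± 58.7 CPM, and the sorting nexin Snx12 had 139 ± 4.08, 126 ± 49.2 and 169 ± 56.4 CPM. The spread in N or DP exceeded the difference between the means for Sec61a1 and Snx12. For Eps15l1 all N libraries lay above all PP libraries.

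Further RNA-binding proteins of progenitors and neurons gave stable circles. Msi1 encodes Musashi, an RNA-binding protein of neural progenitors, and its circle of exons 7 to 8 had 1086, 954 and 1197 CPM in PP, 971, 1119 and 1040 in DP and 1068, 521 and 816 in N. Its PP and DP libraries covered the same range, and N replicate 2 was the lowest. Without N replicate 1 its ratio went from 1.35 to 1.61. It was counted over 962 bases, of which 201 were exon, so that most of its counted sequence lay outside the exons annotated in GENCODE vM1. Pum2, an RNA-binding repressor of translation, had 200 ± 13.8, 220 ± 57.5 and 157 ± 37.0 CPM.

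Chromatin and transcription factor genes gave the largest numbers. Arid1a, another BAF subunit, had 549.6 ± 14.1, 759 ± 53.3 and 646 ± 260 CPM in PP, DP and N, with no overlap between PP and DP. The BAF core subunit Smarcc1 had 295 ± 35.3, 340 ± 22.6 and 239 ± 43.0 CPM, and the methyltransferase gene Whsc1 had 1408 ± 160, 1554 ± 42.9 and 1041 ± 213 CPM, where all N libraries lay below all PP and DP libraries. Nfia, a nuclear factor I gene of gliogenesis, had a single-exon circle with 780, 752 and 215 CPM in PP, 745, 741 and 713 in DP and 845, 812 and 747 in N, so that PP replicate 3 alone lay far below the rest. The circle of Zfp609, a regulator of transcription, had 724 ± 183, 881 ± 10.6 and 1069 ± 280 CPM, and that of the ETS factor gene Elf2 had 911 ± 1032, 611 ± 45.6 and 808 ± 148 CPM. Without PP replicate 3 the Zfp609 ratio was 1.72, and without PP replicate 1 that of Nfia was 1.66. In Elf2 the PP mean rests on PP replicate 3, without which the ratio went from 1.49 to 2.53.

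Lists with few stable circRNAs are given by their leading members. Of axon guidance and adhesion, Cdh2, which encodes N-cadherin of the progenitors' junctions, had 539, 464 and 287 CPM in PP, 334, 315 and 298 in DP and 311, 431 and 355 in N. The higher pair of PP libraries lay above all others, and without PP replicate 3 the ratio went from 1.36 to 1.59. The ephrin receptor genes Epha5 and Ephb2 had 399 ± 171, 336 ± 30.9 and 495 ± 198 CPM and 449 ± 176, 437 ± 24.6 and 411 ± 126 CPM, and without N replicate 1 the Epha5 ratio was 1.79. Of the 30 others in the list, which their ratio had set apart, edgeR called 14 higher and 2 lower in N than in PP. It called 13.6% higher and 14.4% lower over all circRNAs tested. Among all 678 other well measured circRNAs, set apart by the same ratio, it called 193 higher and 73 lower, so that calls higher in N prevailed there too.

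For the cytoskeleton, Kif1b had 149 ± 28.7, 176 ± 41.4 and 216 ± 6.12 CPM and the dynein heavy chain gene Dync1h1 had 346 ± 194, 369 ± 17.3 and 418 ± 93.3 CPM. Clasp1, which stabilises microtubule ends, had 170.2 ± 44.97, 237 ± 25.1 and 230 ± 112 CPM, Anapc5, of the anaphase-promoting complex, had 248 ± 81.4, 242 ± 6.10 and 228 ± 97.7 CPM, and Tubgcp2, of the gamma-tubulin ring complex, had 201 ± 50.1, 198 ± 15.5 and 189 ± 46.7 CPM. Anapc5 and Tubgcp2 kept ratios of at most 1.293 and 1.241 whichever library was left out, whereas that of Clasp1 was 1.71 without N replicate 1.

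Among kinases and their regulators, Map2k2, the kinase MEK2, had 239 ± 86.0, 298 ± 54.1 and 335 ± 3.92 CPM, and without PP replicate 1 its ratio was 1.77. An entry within Cdkn1b, which encodes the cell cycle inhibitor p27, had 96.6, 101 and 455 CPM in PP, 202, 222 and 171 in DP and 495, 101 and 132 in N, and does not end at exon boundaries. Its PP replicate 3 and N replicate 1 lay far above all other libraries, and its ratio went from 1.22 to 2.46 without the former and to 1.87 without the latter.

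The remaining lists held single members or pairs. Rad23b, of nucleotide excision repair, was the only stable circRNA of DNA replication and repair, with 412 ± 46.0, 422 ± 13.2 and 445 ± 163 CPM. The mRNA export factor gene Nxf1 had 654 ± 245, 569 ± 83.0 and 639 ± 233 CPM over an entry without exon ends, and Ranbp3, a cofactor of nuclear export, had 562 ± 364, 376 ± 36.0 and 386 ± 211 CPM. In the synapse and channel list, whose members were found by symbol, the diacylglycerol kinase gene Dgkd had 193 ± 35.4, 201 ± 17.7 and 228 ± 20.2 CPM. Trpc4ap, a protein that binds a cation channel, had 478 ± 89.9, 502 ± 41.8 and 609 ± 61.4 CPM. Ranbp3 is the least certain of these, with a ratio of 2.06 without N replicate 1.

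Of 46 circRNAs for which the study lists primers, 16 were well measured and only 1 was stable, a circle of exons 2 to 5 of Fads2, a desaturase of polyunsaturated fatty acids. It had 628, 560 and 323 CPM in PP, 616, 900 and 734 in DP and 699, 570 and 738 in N. All groups overlapped, and its ratio of 1.49 went to 1.70 without PP replicate 1. Its divergent primers are shown because they point outwards from neighbouring exon sequence and so amplify the circle, with the bases that match the circle in capitals. The forward primer matches the last bases before the junction, positions 513 to 537 of the 537 exon bases counted from the 5′ end of the circle, and the reverse primer matches positions 412 to 436 on the opposite strand.

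Fads2 forward: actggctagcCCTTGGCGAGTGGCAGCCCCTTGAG
Fads2 reverse: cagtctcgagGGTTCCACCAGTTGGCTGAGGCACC
Fads2, chr19:10157055-10166341, minus strand, exons 2 to 5 of 12: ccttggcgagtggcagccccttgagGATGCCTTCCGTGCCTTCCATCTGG

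The junction of Fads2 shows the same bases before the junction as the forward primer. Its counted length of 644 bases exceeded the 537 of its exons, so that sequence outside those exons was counted too. The study lists these primers for its check of introns. It found the exons of the circles it checked but could not detect intron sequence in them.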

How the data were processed

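The authors aligned reads to mm9, predicted circRNAs with find_circ, and counted reads on the expressed features of each circRNA with featureCounts. The deposited table holds these whole-number counts without normalization, with coordinates and a counted length. The submitters' processing notes name bcl2fastq 1.8.4 and Subread 1.6.0. How reads on several circRNAs were counted is not given in the sources used here. No column was left without a sample (0).

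CPM, group means and ratios were computed here with Python 3.11.15, pandas 2.3.3 and numpy 2.4.6, and figures were drawn with matplotlib 3.10.9. Genes, exons and sequence came from GENCODE vM1 on NCBIM37, which is the mm9 assembly but not the Ensembl release of the authors. All 5281 circRNAs entered edgeR 4.0.16 in R 4.3.3 (filterByExpr, TMM, quasi-likelihood test, Benjamini-Hochberg adjustment at 0.05) in 1 model of 3 cell types without a block, and 4406 passed the filter. All 558 members passed it. The steps were tested on simulated data. P-values measure only the spread between these libraries, and it is not stated if a shared replicate number means shared animals.

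The members and the gene lists were chosen with earlier results of these data known. Named circRNAs are the 15 highest per length, the 10 with the smallest ratio, 3 on either side of the threshold, up to 3 per gene list by level per length, those of the 3 genes with most members, 5 genes with a member and a changing circRNA, the longest, shortest and widest, and those with primers. One circRNA per gene was taken for the first 2 of these. Alternatives were other library sizes, medians, count minimums and thresholds, DESeq2 1.42.0, other scalings and filters, a replicate block, fits of only the compared cell types, and libraries left out. Some circRNAs that this rule names are not reported here.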

Additional observations from a re-analysis of the deposited data

How the results depend on the processing

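The number of stable circRNAs followed the limits of the rule, with 906 at a minimum of 5 counts, 258 at 20 counts, 235 at a limit midway between 1 and 1.5 and 930 at a ratio below 2. It was 510 on full column sums, 545 with TMM library sizes, 540 with DESeq2 size factors and 575 with medians, of which 417, 476, 457 and 452 were among the 558. The number of well measured circRNAs changed with the count minimum too, and the stable share was 40.6% of 2230 at 5 counts and 47.5% of 543 at 20. Leaving out each library in turn gave 489 to 730 stable circRNAs, the most without N replicate 1, and without PP replicate 3 it was 677. With these libraries left out, more circRNAs met the count minimum. The share was 45.3% of 1613 without N replicate 1 and 42.9% of 1577 without PP replicate 3, against 45.1% of 1236 with all libraries. Without N replicate 2, which gave 489, it was 39.5% of 1238. With PP replicate 3 and N replicate 1 left out together, 1110 circRNAs were stable, 43.8% of 2534 well measured. Of these 1110, 447 were among the 558, and the median counted length went from 807 to 644 bases.

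Calls among the members, 0 in each contrast, stayed at 0 with DESeq2, with other scalings and filters and in fits of only the compared cell types. Leaving out each library in turn gave 0 to 1 in DP against PP, 0 to 3 in N against DP and 0 to 45 in N against PP, the most without PP replicate 3, and 44, 49 and 94 with both libraries left out together. Over all circRNAs, calls were 82, 830 and 1235. Scaling by total counts gave 22, 407 and 649, and shifted the median log2 fold change of all circRNAs to -0.37 in N against DP and N against PP. With it, 84 were called higher and 323 lower in N than in DP, where TMM gave 398 and 432, and 211 higher and 438 lower in N than in PP, where TMM gave 599 and 636. A minimum of 10 counts in every library gave 12, 134 and 283 calls, with 1262 circRNAs tested. In fits of 2 cell types, N against PP had 735 calls. Leaving out each library in turn gave 37 to 183, 552 to 1239 and 984 to 1638, and leaving out both libraries 659, 1600 and 1988. The causes were not tested.

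The mean correlation of deviations was -0.03 between libraries with the same replicate number (-0.24 to 0.28) and 0.02 between others (-0.32 to 0.31). No pairing by number was seen, but with 3 libraries per group these values cannot tell whether libraries share animals. A replicate block gave 48, 692 and 1061 calls over all circRNAs and 0 among the members.

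Depth limits these comparisons most in PP replicate 3 and N replicate 1, where the median stable circRNA had 23 and 26 counts. If overlapping circles share reads, they leave fewer independent values than circRNAs.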
